A study of Mus musculus with 24 samples.

Results

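The 10 genes described here are H19, Igf2, Igf2r, Cdkn1c, Peg3, Mest and Grb10, which are imprinted, and Igf2bp1, Igf2bp2 and Igf2bp3, which encode RNA-binding proteins that recognize Igf2 mRNA. They were taken by name from a table of 52636 genes measured in 24 samples of MC38, a mouse colorectal cancer cell line of C57BL/6 origin. H19 was chosen by its normalized counts in MC38-WT and MC38-MOCK#1, between which its RNA differed, so its levels in those lines are given as a description and without a test. Each of 8 lines was sequenced in 3 samples. MC38-WT was unmodified and grown without puromycin at passage 7 to 9, whereas the other 7 lines were grown with puromycin. MC38-COSMC KO carries a CRISPR-Cas9 knockout of C1galt1c1 (Cosmc, the chaperone of the enzyme that elongates the Tn antigen), and MC38-CMAS KO a CRISPR-Cas9 knockout of Cmas, the enzyme that activates sialic acid. MC38-DKO carries both knockouts, and MC38-MOCK#1 is the mock-treated reference of these knockouts, all at passage 4 to 6. Lines labelled MC38-FUT4 (passage 7, 8 and 7) and MC38-FUT9 (passage 6 to 8) were made with CRISPR-dCas-VPR, a transcriptional activator aimed at those fucosyltransferase genes. MC38-MOCK#2, at passage 6 to 8, is their reference. The samples of a line are passages of 1 modified population, so a p-value measures the spread between passages. The edit, the passage range and any other difference between 2 populations cannot be told apart.

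Imprinted genes are transcribed mainly from the copy inherited from 1 parent, under the control of DNA methylation marks set in the germline. H19 and Igf2 are neighbours that share enhancers: H19, a noncoding RNA, comes from the maternal copy and Igf2, a fetal growth factor, from the paternal copy. Igf2r, a maternally expressed receptor, carries IGF2 to lysosomes for degradation, and Cdkn1c, also maternally expressed, encodes the cell cycle inhibitor p57. The IGF2BP proteins are fetal proteins that return in many tumors, and they bind and stabilize mRNAs that include Igf2, H19 and Myc.

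The libraries held 6759510 to 16231397 reads, as estimated from the spacing of the deposited values, and 1 read amounted to 0.756 to 1.672 normalized counts. Normalized counts are read counts scaled per library by the authors. Cmas RNA was low where it was targeted, with 93 to 126 normalized counts in MC38-CMAS KO and 122 to 142 in MC38-DKO against at least 272 elsewhere. C1galt1c1 RNA was 145, 163 and 124 in MC38-COSMC KO against 242, 220 and 251 in MC38-MOCK#1 (log2 difference -0.73, adjusted p = 0.0128, limma). In MC38-DKO it was 206, 166 and 175, beside 215, 181 and 152 in MC38-CMAS KO (0.01, adjusted p = 1), so its RNA does not show the knockout of C1galt1c1 in MC38-DKO, and a knockout need not lower the RNA. Fut4 RNA was at 0 or 1 in all 24 samples, also in the line labelled MC38-FUT4, which held 209, 171 and 186 normalized counts of Fut9. MC38-FUT9 held 955, 641 and 676 of Fut9, and no other sample exceeded 7. The label of the line labelled MC38-FUT4 is therefore not matched by Fut4 RNA, and directions drawn from it are those of the line as labelled. Of 10 epithelial and intestinal markers, at most 2 reached 10 normalized counts in any line, so most of them did not show the labelled colorectal origin. Their summed level was 9 to 65 in 7 lines and 270 to 482 in the line labelled MC38-FUT4, where Krt20, named after its values were seen, held 448, 263 and 468 normalized counts in the line labelled MC38-FUT4. Of 12 mesenchymal markers, whose summed level was 22855 to 37338 and consisted mostly of Vim (19787 to 33315), Thy1 was at 0 in all 8 lines. Over the 6 lines other than MC38-WT and MC38-MOCK#1, 9 of 11 tested mesenchymal markers passed the limma F-test, beside 47.5% of all genes. Of those averaging 10 normalized counts or more, 8 of 8 passed, beside 64.8% of such genes. The median range of line means of the 11 tested was 3.08 on the log2 scale against 0.86 over all genes. The part of these differences in the results below was not tested. In such bulk samples, fewer expressing cells and less RNA per cell cannot be told apart.

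H19 (ENSMUSG00000000031) lies at chr7:142575529-142578143 on the minus strand of GRCm38 and is a noncoding gene of 2372 exonic bases. Its RNA was near the detection limit and was concentrated in 3 lines. It was measured at 14, 23 and 14 normalized counts in MC38-CMAS KO, which correspond to an estimated 15.1, 23.2 and 12.1 reads. MC38-FUT9 held 11, 1 and 17 normalized counts, and MC38-WT 4, 10 and 5. The remaining lines were close to or at 0, since MC38-COSMC KO held 2, 2 and 0 and MC38-MOCK#2 held 1, 0 and 3. No H19 was counted in any sample of MC38-MOCK#1, MC38-DKO or the line labelled MC38-FUT4. In the order of mean H19 level, MC38-WT and the next lower line, MC38-COSMC KO, were the only neighbours whose samples did not overlap. MC38-WT was at least 2.11-fold higher than MC38-MOCK#1, taking 3 normalized counts per library as the level that a count of 0 allows. MC38-CMAS KO was at least 5.67-fold higher than MC38-MOCK#1 by the same floor.

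In lines that the choice of H19 did not use, H19 was lower in MC38-DKO than in MC38-CMAS KO by at least 5.67-fold. The fitted difference was -4.13 on the log2(value + 1) scale (standard error 0.41, adjusted p = 0.00147, limma). H19 was at 0 in MC38-DKO, so it passed the filter of at most 4 zeros among 6 samples only through MC38-CMAS KO. That adjusted p is therefore descriptive. MC38-CMAS KO against MC38-COSMC KO gave 3.08 (adjusted p = 0.0549), which became 0.00905 to 0.0489 with a pseudocount of 5, with either other scaling or with all 8 lines in a single fit. H19 was not called there in any fit with 1 sample left out, without a trend or with a replicate block. MC38-FUT9 against MC38-MOCK#2 gave 1.92 (adjusted p = 0.189), with 1 MC38-FUT9 sample as low as the reference. Fitted with all 8 lines together, that difference had an adjusted p of 0.0257. MC38-DKO against MC38-COSMC KO was called without the third MC38-COSMC KO sample (-1.58, adjusted p = 0.0424) and not otherwise when samples were left out. The sample left out in that fit was the only MC38-COSMC KO sample at 0. There too H19 passed the filter only through the line where it was counted.

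H19 also hosts a microRNA, miR-675, within an exon. Its mature sequences are shown because H19 RNA is their precursor, with the seed (bases 2 to 8) in capitals, from RefSeq for GRCm38.p6, at chr7:142577112-142577133 and chr7:142577078-142577099 on the minus strand.
mmu-miR-675-5p: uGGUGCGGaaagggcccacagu
mmu-miR-675-3p: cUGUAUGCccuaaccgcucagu
Neither seed is shared with another mouse miRNA of the table. Mature miRNAs were not measured in these libraries of polyadenylated RNA, and reads that overlapped Mir675 and H19 were left out of the authors' counts. Annotated small RNAs within the gene cover 9.49% of the exonic bases of H19.

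Of 21 genes annotated within 250 kb of H19, 4 reached 10 normalized counts in any sample: Ctsd, Lsp1, Mrpl23 and Gm7290. Lsp1, an actin-binding protein of leukocytes that lies 80.7 kb from H19, was highest in MC38-CMAS KO and MC38-FUT9, as was H19. It was measured at 20, 21 and 20 normalized counts in MC38-CMAS KO and at 17, 9 and 17 in MC38-FUT9. MC38-DKO held 0, 0 and 0, MC38-MOCK#1 held 2, 1 and 2, and the line labelled MC38-FUT4 held 2, 0 and 0. Lsp1 was lower in MC38-DKO than in MC38-CMAS KO by 4.41 on the log2(value + 1) scale of the fit (adjusted p = 0.00081). Against the floor the difference was at least 6.78-fold. With 0 in all MC38-DKO samples, Lsp1 passed the filter only through MC38-CMAS KO, so that adjusted p is descriptive. Lsp1 was higher in MC38-FUT9 than in MC38-MOCK#2 (log2 difference 1.48, adjusted p = 0.0257). The latter call held without the second MC38-FUT9 sample and was lost without any other (adjusted p up to 0.0835). Ctsd, the lysosomal protease cathepsin D, differed over the 6 lines other than MC38-WT and MC38-MOCK#1, from a mean of 1257 normalized counts in MC38-FUT9 to 2522 in MC38-CMAS KO. Mrpl23 and Gm7290 did not pass that test.

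Igf2 (chr7:142650766-142666816) was at 0 in 16 of 24 samples and never above 4 normalized counts. The highest value was the third sample of MC38-MOCK#1. Peg3, a paternally expressed zinc finger gene, and Mest, a paternally expressed hydrolase gene, did not exceed 1 normalized count. Grb10, an adaptor that dampens insulin and IGF1 receptor signaling, did not exceed 2. Grb10 was called lower in MC38-FUT9 (0, 0 and 0) than in MC38-MOCK#2 (1, 1 and 1; adjusted p = 0.0471), a difference of about 1 read per library. That call was lost without the first MC38-FUT9 sample (adjusted p = 0.05). For these 4 genes no difference between lines was detectable at this depth beyond such single reads.

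**Figure D1:**
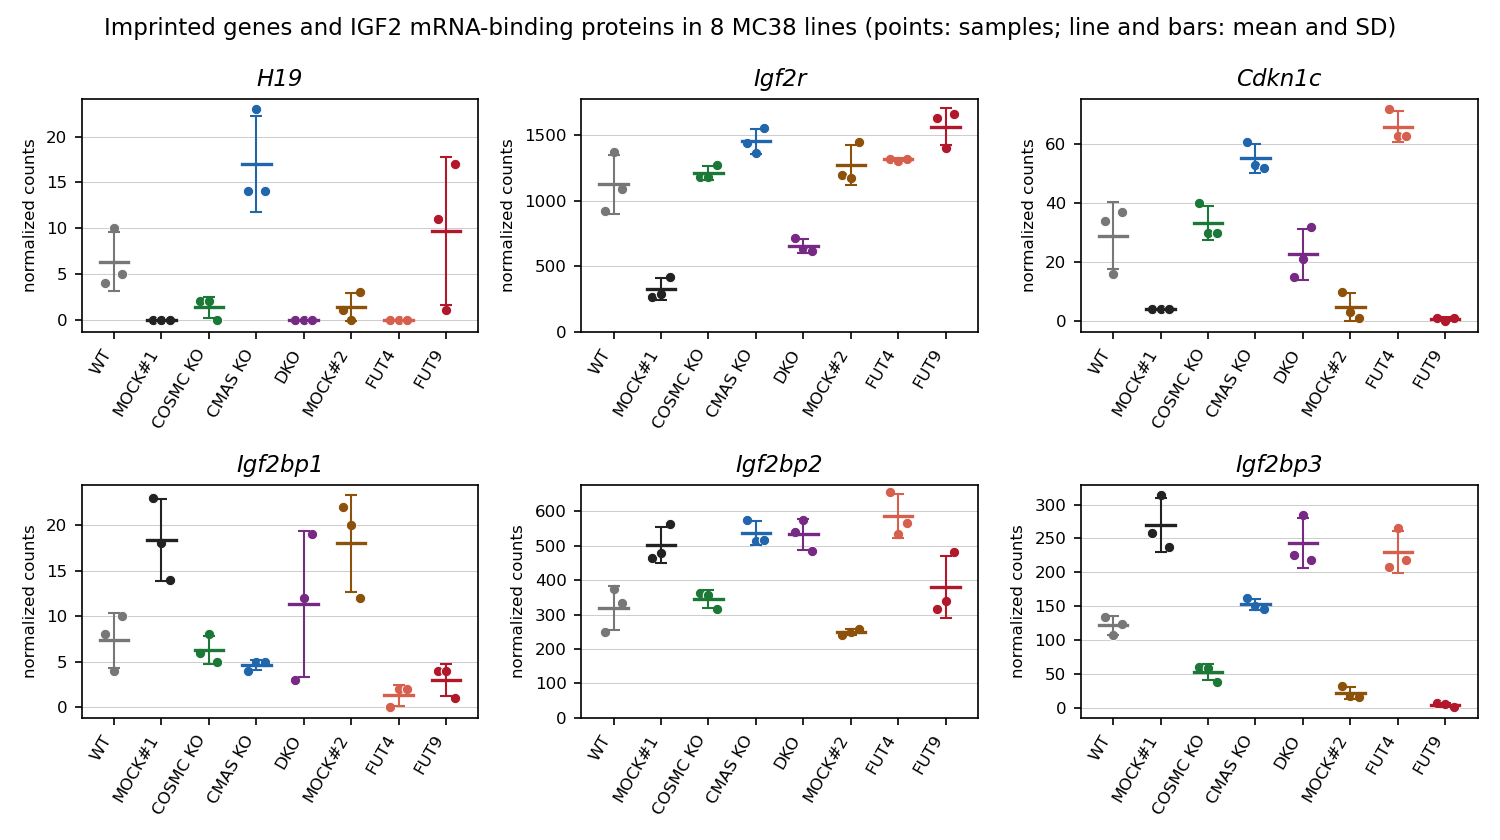
Normalized counts (y axis, linear, a separate scale per gene) of H19, Igf2r, Cdkn1c, Igf2bp1, Igf2bp2 and Igf2bp3 in the 8 MC38 lines (x axis). Points are the 3 samples of a line, the horizontal line is their mean and the bars are the SD. Igf2r is lowest in MC38-MOCK#1, at 268 to 421, and Igf2bp3 is highest there, at 238 to 314.

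Igf2r (chr17:12682406-12769664, minus strand) was the most abundant of the 10 genes per length, with a mean of 118 normalized counts per kb of exon over the 24 samples. It was low in MC38-MOCK#1, with 268, 292 and 421 normalized counts, and intermediate in MC38-DKO, with 715, 632 and 615. MC38-COSMC KO held 1181, 1182 and 1276, and MC38-CMAS KO 1440, 1366 and 1553. All samples of these knockouts thus lay above all samples of MC38-DKO, which in turn lay above all of MC38-MOCK#1. The other lines were also high, with 923, 1368 and 1090 in MC38-WT and 1195, 1172 and 1448 in MC38-MOCK#2. The line labelled MC38-FUT4 held 1322, 1304 and 1321 and MC38-FUT9 held 1633, 1403 and 1660. Among the 6 samples labelled passage 6, Igf2r was 421 in MC38-MOCK#1, 615 in MC38-DKO, 1195 in MC38-MOCK#2, 1276 in MC38-COSMC KO, 1553 in MC38-CMAS KO and 1633 in MC38-FUT9.

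Igf2r was 3.71-fold higher in MC38-COSMC KO than in MC38-MOCK#1 (log2 difference 1.92, standard error 0.16, adjusted p = 0.00104). In MC38-CMAS KO it was 4.44-fold higher (2.17, adjusted p = 0.00172). MC38-DKO had a mean of 654 ± 53.5 (SD, n = 3) against 327 ± 82.3 in MC38-MOCK#1, with an adjusted p of 0.0878 in the fit of these lines and 0.000215 in the fit of all 8 lines. MC38-DKO was lower than MC38-CMAS KO by 1.15 (adjusted p = 0.000434) and lower than MC38-COSMC KO by 0.89 (adjusted p = 0.000609). The mock lines themselves differed, since MC38-MOCK#2 was 3.89-fold higher than MC38-MOCK#1 (adjusted p = 0.00203). Neither overexpression line passed the test against MC38-MOCK#2. Some mesenchymal markers differed in the same comparisons. Their median log2 difference from MC38-MOCK#1 was 0.80 in MC38-COSMC KO (3 of 10 tested higher, beside 6.17% of all genes). It was 1.27 in MC38-CMAS KO (5 of 11 higher, beside 3.02%) and 1.53 in MC38-MOCK#2 (4 of 11 higher, beside 5.30%). Between MC38-DKO and MC38-CMAS KO it was -1.19, with 4 of 11 lower, beside 3.78%. Between MC38-DKO and MC38-COSMC KO it was -0.87, with 1 higher and 2 lower of 9, beside 6.15% and 6.75%. The part of these markers in the differences of Igf2r and Cdkn1c was not tested.

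The RNA Airn, which is transcribed across the start of Igf2r from the paternal copy and silences it, was measured as a separate gene with no shared exonic base. It was named for this role and not by the size of its change. Over the 6 lines other than MC38-WT and MC38-MOCK#1, Airn ranged from 20.7 mean normalized counts in the line labelled MC38-FUT4 to 48.7 in MC38-FUT9. It did not pass the F-test over those lines (adjusted p = 0.0935, limma). MC38-MOCK#1, where Igf2r was lowest, is not part of that test, so it does not show whether Airn differed there. The 250 bases before the start of Igf2r are shown because its RNA separated MC38-MOCK#1 from all other lines. They lie at chr17:12769707-12769956 on the minus strand of GRCm38.p6 (RefSeq), with each CG in capitals.
Igf2r: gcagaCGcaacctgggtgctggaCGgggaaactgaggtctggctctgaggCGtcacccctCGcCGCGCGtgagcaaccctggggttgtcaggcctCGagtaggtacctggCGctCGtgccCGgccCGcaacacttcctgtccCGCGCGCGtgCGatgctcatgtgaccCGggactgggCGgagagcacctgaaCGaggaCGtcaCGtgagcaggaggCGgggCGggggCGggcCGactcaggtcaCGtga
This window holds 27 CG dinucleotides, and 8.56% of 32851 windows of the same length before annotated starts hold as many. It holds the motif GGGCGG 3 times over both strands, and 32.7% of windows hold it at least once. Methylation was not measured here, and whether this window overlaps the region that controls the imprint was not examined. Over the 24 samples, the genes most like Igf2r by Pearson's r of log2(value + 1), among 13515 genes, were Plpp7 (0.91), Vldlr (0.90) and Gm42793 (0.89). These points share lines and scaling, so the values are descriptive.

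Cdkn1c (chr7:143458339-143461050) spanned from near 0 to 72 normalized counts. It was highest in the line labelled MC38-FUT4, with 72, 63 and 63, and in MC38-CMAS KO, with 61, 53 and 52. MC38-COSMC KO held 40, 30 and 30, MC38-WT 34, 16 and 37, and MC38-DKO 15, 21 and 32. The reference lines were low, with 4, 4 and 4 in MC38-MOCK#1 and 10, 3 and 1 in MC38-MOCK#2. In MC38-FUT9 it was 1, 0 and 1. Thus both mock lines lay below all 3 lines carrying a knockout and also below the unmodified MC38-WT, with no overlap of samples.

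Against MC38-MOCK#1, Cdkn1c was 8.33-fold higher in MC38-COSMC KO (log2 difference 2.77, adjusted p = 0.00195) and 13.8-fold higher in MC38-CMAS KO (3.49, adjusted p = 0.00153). MC38-DKO had a difference of 2.18 that did not pass (adjusted p = 0.144, and 0.0232 in the fit of all 8 lines). It was lower in MC38-DKO than in MC38-CMAS KO (-1.31, adjusted p = 0.0387), a call that held without the third MC38-DKO sample and was lost without any other (adjusted p 0.0938 to 0.152). The line labelled MC38-FUT4 was 14.1-fold higher than MC38-MOCK#2 (3.91, adjusted p = 0.00606). This call was lost without its first or the third sample (adjusted p 0.0566 and 0.0568). MC38-FUT9 against MC38-MOCK#2 gave -1.49 (adjusted p = 0.169, and 0.0186 in the fit of all 8 lines). An antisense gene, Gm44732, covers 30.7% of the exonic bases of Cdkn1c, and whether the counts used strand is not given in the sources used here. The genes most like Cdkn1c over the 24 samples were Zwint (r = 0.94), Sp6 (0.92) and Gm47223 (0.92).

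The 3 IGF2 mRNA-binding proteins share a let-7 site in the 3′ untranslated region, and let-7 is a miRNA family known to repress them in adult tissue. The let-7 seed and the first site in each longest annotated region are shown with capitals for the seed and for the 7-base match CTACCTC. The sites lie at chr11:95961775-95961800, chr16:22059470-22059495 and chr6:49086784-49086809, all on the minus strand of GRCm38.
mmu-let-7a-5p: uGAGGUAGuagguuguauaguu
Igf2bp1: gctgtgcgaagtaaaCTACCTCaagg
Igf2bp2: acacacaaataaaagCTACCTCaggt
Igf2bp3: tgcatttttactcaaCTACCTCaggt
Igf2bp1 holds 4 such sites in 6337 bases, and 0.264% of 757 genes with a region 75% to 125% as long hold as many. Igf2bp2 and Igf2bp3 hold 1 each, as do 11.5% and 12.9% of genes with regions of like length, which hold at least as many. Over all 21020 genes with such a region, 9.03% hold a site. The seed is shared by 11 mouse miRNAs of the table, none of which was measured here.

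Igf2bp3 (chr6:49085223-49214957) had the widest range of the 3. It was high in MC38-MOCK#1, with 258, 314 and 238 normalized counts, in MC38-DKO, with 226, 285 and 219, and in the line labelled MC38-FUT4, with 208, 266 and 218. MC38-CMAS KO (162, 150 and 146) and MC38-WT (134, 107 and 124) were intermediate. MC38-COSMC KO held 61, 59 and 39, MC38-MOCK#2 33, 18 and 16, and MC38-FUT9 7, 6 and 1. From the third line to the eighth in order of level, no line overlapped its neighbour.

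Igf2bp3 was 5.09-fold lower in MC38-COSMC KO than in MC38-MOCK#1 (log2 difference -2.34, standard error 0.20, adjusted p = 0.00111). It was 4.59-fold higher in MC38-DKO than in MC38-COSMC KO (2.19, adjusted p = 0.00067). In MC38-CMAS KO it was 1.77-fold lower than in MC38-MOCK#1 (-0.81, adjusted p = 0.0162), which held without the third MC38-MOCK#1 sample and was lost without any other sample (adjusted p 0.0624 to 0.0973). MC38-MOCK#2 was 12.1-fold lower than MC38-MOCK#1 (-3.60, adjusted p = 0.00125). Relative to MC38-MOCK#2, the line labelled MC38-FUT4 was 10.3-fold higher (3.37, adjusted p = 0.000702) and MC38-FUT9 4.79-fold lower (-2.21, adjusted p = 0.0387). The last of these was lost without any 1 of the 6 samples (adjusted p 0.062 to 0.133). MC38-DKO against MC38-CMAS KO (0.66, adjusted p = 0.0247) and MC38-CMAS KO against MC38-COSMC KO (1.53, adjusted p = 0.019) were likewise lost without any 1 sample (up to 0.128 and 0.189). Malsu1, on the opposite strand, covers 18.7% of the exonic bases of Igf2bp3.

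The 250 bases before the start of Igf2bp3, at chr6:49214955-49215204 on the minus strand of GRCm38.p6 (RefSeq), are shown with CG in capitals because its RNA spans nearly the whole range from silent to abundant between lines.
Igf2bp3: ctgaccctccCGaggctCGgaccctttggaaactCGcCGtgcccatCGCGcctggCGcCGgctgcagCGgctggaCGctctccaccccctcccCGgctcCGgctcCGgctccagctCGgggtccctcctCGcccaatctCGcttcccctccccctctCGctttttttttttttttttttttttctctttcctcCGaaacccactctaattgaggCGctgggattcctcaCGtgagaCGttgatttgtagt
It holds 21 CG dinucleotides, as many as 16.3% of windows, and GGGCGG was not found on either strand. The window of Igf2bp2 holds 40. Of the windows of the near-silent genes, those of Igf2 hold 1, 6, 10 and 22, that of Peg3 8, those of Mest 7, 14 and 14, and those of Grb10 8 and 40. The RNA of Igf2bp3 was followed most closely over the 24 samples by Fndc3c1 (r = 0.98), Kcnd1 (0.98) and Ucp2 (0.96).

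Igf2bp2 (chr16:22059009-22163299) was present in every line and varied least of the 3 on the log2 scale. It was measured at 463, 480 and 563 normalized counts in MC38-MOCK#1, 576, 515 and 517 in MC38-CMAS KO, and 539, 575 and 486 in MC38-DKO. MC38-COSMC KO held 364, 358 and 316, MC38-WT 249, 373 and 334, and MC38-MOCK#2 240, 249 and 259. The lines labelled MC38-FUT4 (657, 534 and 565) and MC38-FUT9 (315, 340 and 482) lay above MC38-MOCK#2 in every sample. Igf2bp2 was 2.35-fold higher in the line labelled MC38-FUT4 than in MC38-MOCK#2 (1.22, adjusted p = 0.0006) and 2.01-fold lower in MC38-MOCK#2 than in MC38-MOCK#1 (-1.0, adjusted p = 0.00238). It was 1.54-fold higher in MC38-DKO than in MC38-COSMC KO (0.62, adjusted p = 0.0053). Smaller calls were less firm. MC38-COSMC KO against MC38-MOCK#1 (-0.53, adjusted p = 0.0177) held without the third MC38-MOCK#1 sample and was lost without any other (up to 0.0787). MC38-FUT9 against MC38-MOCK#2 (0.58, adjusted p = 0.0403) held without the third MC38-FUT9 sample and was lost without any other (up to 0.132). MC38-CMAS KO against MC38-COSMC KO (0.63, adjusted p = 0.0242) was lost without any 1 sample (up to 0.197). Alcam (r = 0.89), Cyfip2 (0.88) and Hid1 (0.87) were the genes most like Igf2bp2.

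Igf2bp1 (chr11:95957163-96005940) was low, with at most 23 normalized counts. The mock lines were highest, with 23, 18 and 14 in MC38-MOCK#1 and 22, 20 and 12 in MC38-MOCK#2. MC38-DKO spread over 3, 12 and 19. The line labelled MC38-FUT4 held 0, 2 and 2 and MC38-FUT9 4, 4 and 1, whereas MC38-COSMC KO held 6, 8 and 5, MC38-CMAS KO 4, 5 and 5 and MC38-WT 8, 4 and 10. No neighbours in the order of levels were separated. Igf2bp1 was lower than in MC38-MOCK#1 in MC38-COSMC KO (-1.39, adjusted p = 0.0393) and in MC38-CMAS KO (-1.75, adjusted p = 0.0267). Both calls held without the third MC38-MOCK#1 sample and were lost without any other sample (up to 0.117 and 0.11). It was lower than in MC38-MOCK#2 in the line labelled MC38-FUT4 (-3.15, adjusted p = 0.00987) and in MC38-FUT9 (-2.32, adjusted p = 0.0144). Those calls were lost without the first or the second MC38-MOCK#2 sample (adjusted p up to 0.0565 and 0.0624).

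**Figure D2:**
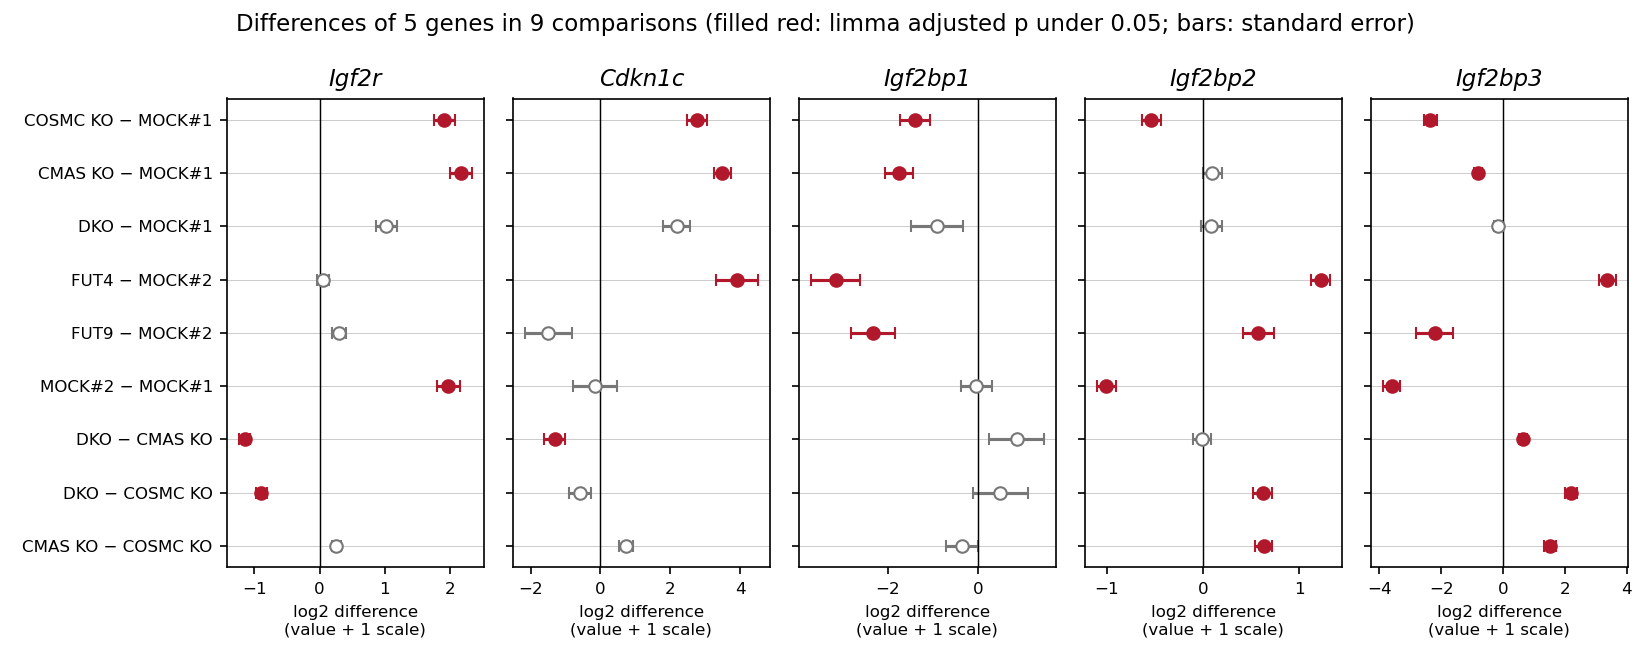
Log2 differences (x axis, log2(value + 1) scale) of Igf2r, Cdkn1c, Igf2bp1, Igf2bp2 and Igf2bp3 in 9 comparisons of 2 lines (y axis), with the standard error as bars. Filled red points have a limma adjusted p under 0.05 over all genes tested. Igf2r and Igf2bp3 point in opposite directions in MC38-COSMC KO against MC38-MOCK#1, at 1.92 and -2.34.

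The comparisons can be read gene set by gene set against the share of all genes called. Between MC38-COSMC KO and MC38-MOCK#1, 5 of 7 tested members other than H19 were called, 2 higher and 3 lower, beside 11.6% of all genes (6.17% higher, 5.39% lower). Between MC38-CMAS KO and MC38-MOCK#1 it was 4 of 7, with 2 higher and 2 lower, beside 5.76% (3.02% higher, 2.73% lower). MC38-DKO and MC38-MOCK#1 differed in 0 of 6 by limma, beside 0.0920% of all genes (0.0230% higher, 0.0690% lower). There 2 members (Igf2r and Cdkn1c) had an unadjusted p under 0.05, beside 1632 of 21738 genes. The fit of all 8 lines called those 2, beside 159 of 21738 genes. MC38-DKO against MC38-CMAS KO gave 4 of 9 (H19, Igf2r and Cdkn1c lower, Igf2bp3 higher), beside 6.93% (3.15% higher, 3.78% lower). Of these, H19 passed the filter only through MC38-CMAS KO. MC38-DKO against MC38-COSMC KO gave 3 of 8, beside 12.9% (6.15% higher, 6.75% lower), and MC38-CMAS KO against MC38-COSMC KO 2 of 8, beside 0.812% (0.424% higher, 0.388% lower). Comparisons that share MC38-MOCK#1 are not independent of each other.

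For the overexpression lines, 4 of 8 tested members were called between the line labelled MC38-FUT4 and MC38-MOCK#2, 3 higher and 1 lower, beside 16.1% of all genes (8.10% higher, 8.04% lower). MC38-FUT9 differed from MC38-MOCK#2 in 4 of 9, 1 higher and 3 lower, beside 24.1% (12.1% higher). Of these, Grb10 passed the filter only through MC38-MOCK#2, and its call rests on single reads. Between the mock lines, 3 of 8 members other than H19 were called, beside 11.3% of all genes (5.30% higher, 6.02% lower). MC38-MOCK#2 was higher for Igf2r and lower for Igf2bp2 and Igf2bp3. Over the 6 lines that the choice of H19 did not use, 6 of 8 tested members passed the limma F-test, beside 47.5% of all genes. H19 and Igf2bp1 average under 10 normalized counts. In a fit of genes averaging 10 or more, 4 members passed, and 64.8% of such genes passed in the fit of all genes. The adjusted p was 4.74e-09 for Igf2bp3, 2.54e-08 for Igf2r, 9.08e-08 for Cdkn1c, 1.37e-06 for Igf2bp2, 0.000198 for H19 and 0.00225 for Igf2bp1. Leaving out the line labelled MC38-FUT4 also gave 6.

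MC38-WT and MC38-MOCK#1, the lines that chose H19, had non-overlapping samples for 6 members, beside 23.4% of all genes. H19 is among these 6, and its difference here was given by its choice. Igf2 and Grb10 overlapped, and Peg3 and Mest did not pass the filter. MC38-WT was higher for H19 (log2 difference 2.79), Igf2r (1.79) and Cdkn1c (2.5). It was lower for Igf2bp1 (-1.26), Igf2bp2 (-0.67) and Igf2bp3 (-1.14). These differences are descriptive, since this contrast was used to choose H19.

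**Figure D3:**
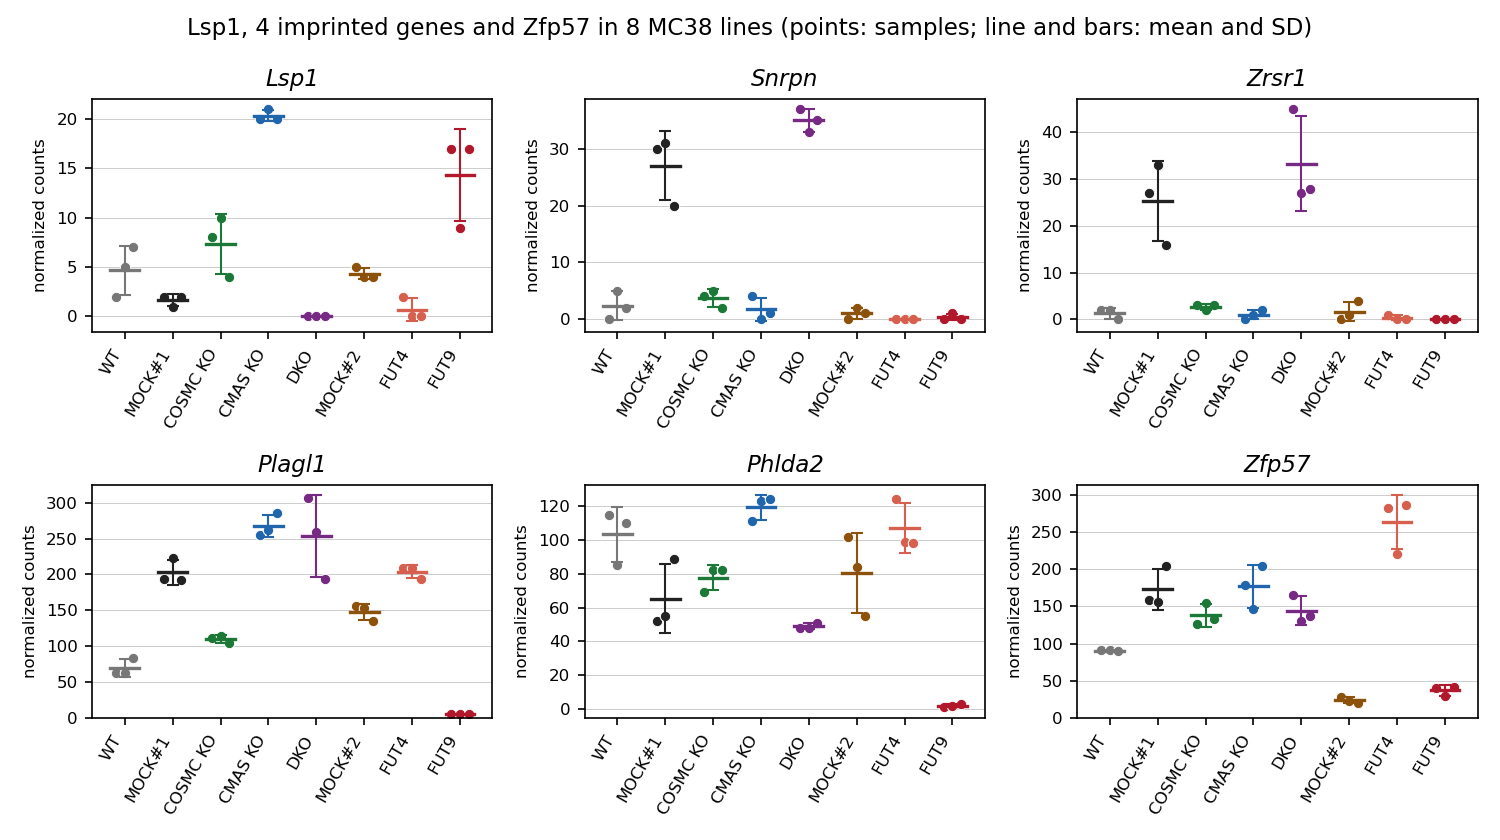
Normalized counts (y axis, linear, a separate scale per gene) of Lsp1, a neighbour of H19, the imprinted genes Snrpn, Zrsr1, Plagl1 and Phlda2, and Zfp57 in the 8 MC38 lines (x axis). Points are the 3 samples, the horizontal line is the mean and the bars are the SD. Snrpn reaches 20 to 37 in MC38-MOCK#1 and MC38-DKO and at most 5 in the other lines.

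Other imprinted genes were followed as lists of 25 maternally expressed and 28 paternally expressed genes. Over the 6 lines, 12 of 14 tested maternally expressed genes and 13 of 17 tested paternally expressed genes passed the F-test, beside 47.5% of all genes. Among those averaging 10 normalized counts or more it was 10 of 11 and 9 of 12, beside 64.8%. The median range of line means was 1.6 and 0.87 on the log2 scale, beside 0.86 over all genes tested. Between MC38-COSMC KO and MC38-MOCK#1, 2 maternally expressed genes rose and 1 fell of 15 tested, and 2 paternally expressed genes rose and 3 fell of 17, beside 6.17% of all genes higher and 5.39% lower. The median log2 differences of the lists there were 0.06 and -0.02, beside 0.00 over all genes tested.

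Snrpn, a splicing protein gene of chromosome 7, and Zrsr1, a splicing factor gene of chromosome 11, are paternally expressed and were high in the same 2 lines. Snrpn was measured at 30, 31 and 20 normalized counts in MC38-MOCK#1 and 37, 33 and 35 in MC38-DKO. MC38-COSMC KO held 4, 5 and 2, MC38-CMAS KO 4, 0 and 1, and the line labelled MC38-FUT4 0, 0 and 0. Zrsr1 was at 27, 33 and 16 in MC38-MOCK#1 and 45, 27 and 28 in MC38-DKO, against at most 4 in any other sample. H19 was at 0 in MC38-MOCK#1 and MC38-DKO, and also in the line labelled MC38-FUT4, where neither gene was high. MC38-MOCK#1 was used to choose H19. Between MC38-DKO and MC38-MOCK#1, 0.0920% of all genes were called, so likeness of these lines is not particular to these genes. Snrpn was lower in MC38-COSMC KO than in MC38-MOCK#1 (-2.62, adjusted p = 0.00713) and higher in MC38-DKO than in MC38-CMAS KO (4.06, adjusted p = 0.00691). Zrsr1 gave -2.80 (adjusted p = 0.00519) and 4.2 (adjusted p = 0.00329) in the same comparisons. For Snrpn, the first call was lost without the second MC38-MOCK#1 sample (adjusted p = 0.0568), and the other held without the first MC38-CMAS KO sample and was lost without any other (up to 0.0709). For Zrsr1, the call between MC38-DKO and MC38-CMAS KO was lost without the second MC38-CMAS KO sample (adjusted p = 0.056). Snurf, whose exons lie wholly within Snrpn, was listed at 0 throughout, and the authors left out reads over more than 1 gene. Shared genes cover 34.1% of the exonic bases of Snrpn and 6.19% of those of Zrsr1.

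Plagl1, a paternally expressed zinc finger regulator of imprinted genes, and Phlda2, a maternally expressed placental growth inhibitor that neighbours Cdkn1c on chromosome 7, were nearly absent from 1 line. Plagl1 was 5, 5 and 6 normalized counts in MC38-FUT9 and 156, 153 and 135 in MC38-MOCK#2 (log2 difference -4.56, adjusted p = 8.74e-05). Phlda2 was 1, 2 and 3 in MC38-FUT9 and 102, 84 and 55 in MC38-MOCK#2 (-4.77, adjusted p = 0.000503). MC38-DKO held 48, 48 and 51 of Phlda2 against 111, 123 and 124 in MC38-CMAS KO (-1.27, adjusted p = 0.00309). Plagl1 was higher in MC38-CMAS KO than in MC38-COSMC KO (267 against 110 mean normalized counts, 1.27, adjusted p = 0.00419). That call was lost without any 1 sample (adjusted p up to 0.112). Zim1, a maternally expressed zinc finger gene next to Peg3, was also near 0 in MC38-FUT9 (0, 0 and 2) and stood at 49, 26 and 47 in the line labelled MC38-FUT4. Asb4, a maternally expressed ubiquitin ligase adaptor, was 77, 116 and 141 in MC38-MOCK#1 and 4, 5 and 7 in MC38-MOCK#2 (-4.13, adjusted p = 0.00119). It was 89, 126 and 101 in the line labelled MC38-FUT4 (4.08 against MC38-MOCK#2, adjusted p = 0.000371).

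Among 17 genes that keep imprints or set their domains, 11 of 16 tested passed the F-test over 6 lines, beside 47.5% of all genes, and 10 of 13 averaging 10 or more, beside 64.8%. Their median range of 0.64 was under the 0.86 of all genes. Zfp57, a zinc finger protein that protects methylation at imprinted regions, had the widest range. It was 28, 23 and 20 normalized counts in MC38-MOCK#2 and 283, 221 and 286 in the line labelled MC38-FUT4 (3.42, adjusted p = 0.000178). MC38-FUT9 held 40, 29 and 42. Zfp57 was also lower in MC38-MOCK#2 than in MC38-MOCK#1, at 158, 156 and 205 (-2.82, adjusted p = 0.000878). Dnmt3a, a DNA methyltransferase, was higher in MC38-FUT9 than in MC38-MOCK#2 (873 against 549 mean normalized counts, adjusted p = 0.00892) and lower in MC38-DKO than in MC38-COSMC KO (391 against 646, adjusted p = 0.00283). The call in MC38-FUT9 was lost without its first or the third sample (adjusted p 0.0541 and 0.0554). In MC38-COSMC KO against MC38-MOCK#1, 0 of 16 were called by limma, beside 11.6% of all genes. An unadjusted p under 0.05 was found for 5 of 16, beside 5770 of 22172 genes tested.

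**Figure D4:**
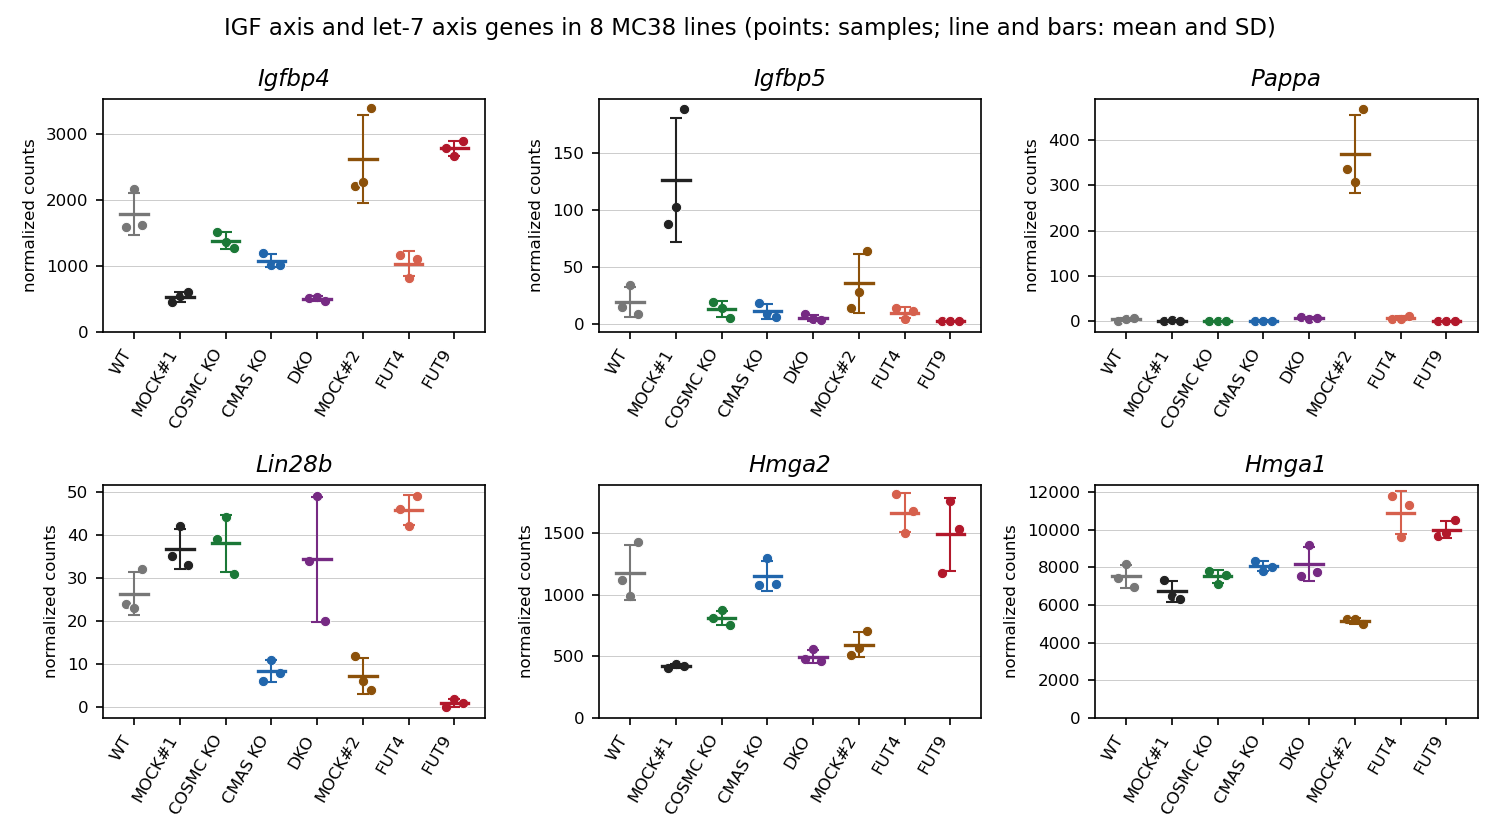
Normalized counts (y axis, linear, a separate scale per gene) of the IGF axis genes Igfbp4, Igfbp5 and Pappa and the let-7 axis genes Lin28b, Hmga2 and Hmga1 in the 8 MC38 lines (x axis). Points are the 3 samples, the horizontal line is the mean and the bars are the SD. Pappa is at 307 to 469 in MC38-MOCK#2 and at most 12 in the other lines.

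In the IGF axis list of 19 genes, 10 of 10 tested passed the F-test over 6 lines, beside 47.5% of all genes, with a median range of 1.82 against 0.86. Of those averaging 10 or more, 8 of 8 passed, beside 64.8%. Igfbp4, which binds and withholds IGFs, was 451, 543 and 599 normalized counts in MC38-MOCK#1 and 1518, 1353 and 1267 in MC38-COSMC KO (1.38, adjusted p = 0.0011). It was 519, 529 and 466 in MC38-DKO, lower than in MC38-CMAS KO by 1.09 (adjusted p = 0.000814). Igfbp5, another IGF-binding protein, was 88, 103 and 189 in MC38-MOCK#1 and at most 64 in any other sample. It was lower in MC38-COSMC KO (-3.31, adjusted p = 0.00738), MC38-CMAS KO (-3.51, adjusted p = 0.00912) and MC38-DKO (-4.42, adjusted p = 0.00634). The call in MC38-COSMC KO was lost without its second sample or the second MC38-MOCK#1 sample (up to 0.0712). The call in MC38-CMAS KO held only without its first or the third MC38-MOCK#1 sample (up to 0.0816 otherwise), and that in MC38-DKO was lost without any 1 sample (up to 0.383). Pappa, the protease that cleaves IGFBP4, was 336, 307 and 469 in MC38-MOCK#2 and 0, 0 and 0 in MC38-FUT9, at least 124-fold lower. The line labelled MC38-FUT4 held 5, 4 and 12 of Pappa.

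Among 16 genes listed as partners of the IGF2BP proteins, 10 of 15 tested passed the F-test. The list holds Lin28b and Hmga2 beside genes such as Actb, Elavl1 and Ybx1, so it is not a list of fetal genes only. All 15 average 10 normalized counts or more, of which 64.8% of all genes passed, so the count is near that share. Their median range was 0.36 against 0.86 over all genes tested, which include genes averaging under 10. Lin28b, an RNA-binding protein that blocks let-7 maturation, was 46, 42 and 49 normalized counts in the line labelled MC38-FUT4, 12, 6 and 4 in MC38-MOCK#2 and 0, 2 and 1 in MC38-FUT9. Against MC38-MOCK#2, the line labelled MC38-FUT4 differed by 2.60 (adjusted p = 0.00561) and MC38-FUT9 by -2.08 (adjusted p = 0.0368). The first of these calls was lost without the third sample of the line labelled MC38-FUT4 (adjusted p = 0.0504), and the other held only without the third MC38-MOCK#2 sample (up to 0.108 otherwise). In MC38-CMAS KO, Lin28b was 6, 11 and 8 against 35, 42 and 33 in MC38-MOCK#1 (-2.04, adjusted p = 0.0131), and it was 39, 44 and 31 in MC38-COSMC KO. The call in MC38-CMAS KO held only without the third MC38-MOCK#1 sample (up to 0.085 otherwise). Hmga2, a chromatin protein whose 3′ untranslated region holds 4 let-7 sites, rose in MC38-CMAS KO from 407, 437 and 419 to 1082, 1296 and 1084 (1.45, adjusted p = 0.0012). Hmga2 was also higher in MC38-COSMC KO than in MC38-MOCK#1 (0.94, adjusted p = 0.00094), where Igf2bp3 was lower. Against MC38-MOCK#2 it was higher in the line labelled MC38-FUT4 (1.49, adjusted p = 0.000855), where Lin28b and Igf2bp3 were higher too. In MC38-FUT9 it was higher (1.32, adjusted p = 0.00264), while Lin28b and Igf2bp3 were lower, as in MC38-CMAS KO. MC38-DKO was lower than MC38-CMAS KO for Hmga2 (-1.21, adjusted p = 0.000901). Of 8 housekeeping genes, 6 passed the F-test over 6 lines, beside 64.8% of genes averaging 10 or more, with a median range of 0.35. In MC38-COSMC KO against MC38-MOCK#1, 1 of 8 was called, beside 11.6% of all genes.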

How the data were processed

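Polyadenylated RNA of 24 samples was sequenced as single reads of 50 bases. The authors aligned reads with HISAT2 2.0.4, counted them per gene with featureCounts (Subread 1.5.0-p3) without reads over several genes, and scaled them with edgeR 3.18.1. The deposited values are these normalized counts rounded to whole numbers, here handled as a score and not as raw counts. The authors' annotation gave 52636 genes, of which 52403 had a symbol.

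The spacing of low values gave 1 scaling factor per library, and 13 simulated factors were recovered with errors of at most 0.0341%. Differences between lines were tested with limma 3.58.1 in R 4.3.3 on log2(value + 1), with a mean-variance trend, over 21092 to 22175 genes with at most 4 zeros among 6 samples (12 among 18 for the F-test). P-values were adjusted by Benjamini-Hochberg over all genes tested and called under 0.05. On data simulated for MC38-DKO against MC38-CMAS KO, 161 of 200 genes changed 2-fold were called among 21460 genes, with 4 unchanged genes. The design provided for a count model only if raw counts were deposited, so none was used.

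The members and the gene lists were chosen with earlier results of these data known. H19 was not tested in comparisons with MC38-MOCK#1. All members were named, with the genes targeted in the lines, the neighbours of H19 that reached 10, at most 3 called genes of largest difference per list and comparison, the 3 called genes of widest range per list over 6 lines (mean of at least 10), and the 3 genes most like a member. Folds are ratios of mean normalized counts, and a line at 0 was set to a floor of 3 per library. Intervals from counting were not used. Alternatives were pseudocounts of 0.5 and 5, other filters and scalings, all 8 lines in a single fit, no trend, a replicate block and leaving out each sample. Sequences were read from RefSeq and GENCODE for GRCm38 with Python 3.11.15.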

Additional observations from a re-analysis of the deposited data

Results flagged for a closer look

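In 2 pairs of lines the labels differ by the C1galt1c1 knockout: MC38-COSMC KO was set against MC38-MOCK#1, and likewise MC38-DKO was set against MC38-CMAS KO. C1galt1c1 RNA itself had a mean of 182 normalized counts in MC38-DKO and 183 in MC38-CMAS KO. Each line is 1 population, so the knockout and other differences between populations cannot be told apart. The difference between the pairs was tested by an interaction in limma over the 4 lines, which was added after the data were seen and called 22.1% of all genes tested. Igf2r was higher by 1.92 on the log2 scale in the first pair and lower by 1.15 in the other, with every sample in the stated direction (difference 3.07, standard error 0.19, adjusted p = 9.03e-08). Cdkn1c gave 2.77 and -1.31 (difference 4.08, adjusted p = 1.18e-05). Igf2bp3 gave -2.34 and 0.66 (difference -3.0, adjusted p = 1.47e-06). For Igf2bp1 the differences were -1.39 and 0.84 (difference -2.24, adjusted p = 0.0383). For Igf2bp2 they were -0.53 and -0.01 (difference -0.52, adjusted p = 0.0151). H19 was not tested, since it was chosen with MC38-MOCK#1.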

How the results depend on the processing

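Of 863 values of members under alternatives, 758 kept their direction and side of the threshold, 92 lost the call, 13 gained it and 0 changed sign. Of 1400 such values for 81 calls of other named genes, 1212 kept the call, 188 lost it and 0 changed sign. With all 8 lines in a single fit, 2 members were called in MC38-DKO against MC38-MOCK#1 in place of 0, and 2 in place of 4 in MC38-DKO against MC38-CMAS KO. Over all genes, the former comparison had 159 calls in place of 20. Without a trend in the moderation, 2 were called in place of 4 both for MC38-FUT9 against MC38-MOCK#2 and for MC38-DKO against MC38-CMAS KO, and 0 in place of 2 for MC38-CMAS KO against MC38-COSMC KO. Rescaling to the same total gave 2 in place of 4 in MC38-FUT9 against MC38-MOCK#2. The cause was not tested. Leaving out 1 sample gave 3 to 5 calls in MC38-COSMC KO and 2 to 4 in MC38-CMAS KO against MC38-MOCK#1, 1 to 3 in MC38-FUT9 against MC38-MOCK#2, 2 to 3 in MC38-DKO against MC38-CMAS KO and 0 to 0 in MC38-CMAS KO against MC38-COSMC KO. The F-test over 6 lines kept 6 calls in each such fit. Samples of different lines with the same replicate number did not deviate together, since r was -0.31 to 0.25 over 28 pairs of lines and in 0 pairs was every r over 0.1. A fit with a replicate block left 2 residual degrees of freedom. In it 0 members were called in MC38-COSMC KO and 0 in MC38-CMAS KO against MC38-MOCK#1. Over all genes, that fit called only 4 of 22172 and 1 of 22024 in these comparisons. It called 2 members in MC38-DKO against MC38-CMAS KO and 0 in MC38-CMAS KO against MC38-COSMC KO. Depth limits H19, Igf2, Peg3, Mest, Grb10 and Igf2bp1, at 0 to 23 normalized counts per library.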
